A study of Mus musculus with 49 samples.

Results

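The collagen genes of mouse white fat were examined as a family: all 43 symbols that consist of Col, a type number, the letter a and a chain number, out of 22869 gene symbols in the tables. They comprise 11 fibrillar genes, 8 basement membrane genes (Col4a1 to Col4a6, Col15a1 and Col18a1), 6 Col6 genes and 18 others. For the 6 symbols with more than 1 transcript row, the row with the highest total was used. The mice were of 2 inbred strains, C57BL/6 and 129S1/SvImJ, shortened to 129 in the plots, and the labels name no transgene or deletion in either. Visceral fat was taken from the epididymal depot (eWAT) of mice fed chow (5 libraries per strain), of mice in a drug experiment on low fat diet (4 libraries for each strain, with rosiglitazone or control) and of mice fed low fat diet for 12 weeks (5 C57BL/6 and 4 129S1/SvImJ libraries). In the drug experiment the mice ate control diet for 10 weeks, from 6 to 16 weeks of age, and then for the final 2 weeks either the same diet or one with 36 mg of rosiglitazone per kg, until 18 weeks of age. Subcutaneous fat was taken from the inguinal depot (iWAT) of mice of both strains fed low fat diet for 12 weeks (4 libraries per strain). The comparisons ask how the strains and depots differ and how the drug acts in each strain.

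Collagens are triple helical proteins of the extracellular matrix. Fibrillar chains, led by types I and III, form the cables that give tissue its strength, and type V joins them as a minor chain that controls fibril assembly. Type IV chains form the sheet of the basement membrane, which in fat surrounds each adipocyte and each vessel, and types XV and XVIII carry heparan or chondroitin sulfate chains in the basement membrane zone. Type VI forms beaded microfilaments near cell surfaces, and the alpha 3 chain releases the fragment endotrophin. Rosiglitazone activates the nuclear receptor PPARG, the main regulator of adipocyte differentiation.

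The deposited values are whole numbers that the authors had normalized, with a floor of 1, so the read depth is unknown. Library totals of 5537632 to 7526303 are sums of such normalized values. The 6 adipocyte markers were abundant in every library, lowest in 129S1/SvImJ chow replicate 2, with sums of 16489 to 161269. The 4 C57BL/6 iWAT libraries were coarser, with 32.1% to 37.7% of transcripts at the floor. Whether each library is from its own mouse is not stated in the labels, so the p-values reflect only how far these libraries spread, and that spread may be technical. A difference in tissue RNA cannot tell fewer cells of a type from less RNA per cell. Differences are given as log2 differences ± SE from limma on log2(value + 1), which understates changes of low genes. A gene was called at an adjusted p under 0.05 (limma, Benjamini-Hochberg over all 22869 symbols).

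Per kb of transcript, Col3a1 had the highest group mean of the family in all groups but C57BL/6 eWAT on control diet and on rosiglitazone, where Col4a1 did. After 12 weeks of low fat diet, the mean normalized value per kb in C57BL/6 eWAT was 1767 for Col3a1, 1564 for Col4a1, 909.7 for Col4a2, 788 for Col6a1, 745 for Col15a1, 548 for Col1a2 and 159 for Col1a1. In C57BL/6 iWAT the same quantity was 5273 for Col3a1, 1943 for Col1a2, 1763 for Col4a1 and 882 for Col1a1. Lengths were matched for 42 of 43 genes, all but Col12a1. At the other end, 16 members had no group mean of 100, and among them were the cartilage chains Col2a1, Col9a1, Col9a2, Col11a1 and Col11a2. Col2a1 was at the floor of 1 in all 8 iWAT libraries.

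The classes shared the collagen signal differently in the depots. The fibrillar class held 38.9% ± 2.68 (SD, n = 5) of the summed per-kb collagen value in C57BL/6 eWAT and 62.4% ± 3.14 (n = 4) in C57BL/6 iWAT after 12 weeks. In 129S1/SvImJ its share was 48.2% ± 2.48 in eWAT and 63.3% ± 3.94 in iWAT (n = 4 each). Every iWAT library, from 58.6% up, lay above every eWAT library of the same diet, up to 49.6%. The basement membrane share ran the other way, from 40.9% ± 1.70 in eWAT to 22.2% ± 2.57 in iWAT in C57BL/6, and from 31.8% ± 2.68 to 23% ± 2.70 in 129S1/SvImJ. The Col6 share went from 18.1% ± 1.79 to 14.2% ± 0.69 and from 17% ± 0.91 to 12.4% ± 1.13, and the remaining 18 genes held 1.1% to 3.0% on average in these groups. These shares are descriptions and were not tested.

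**Figure D1:**
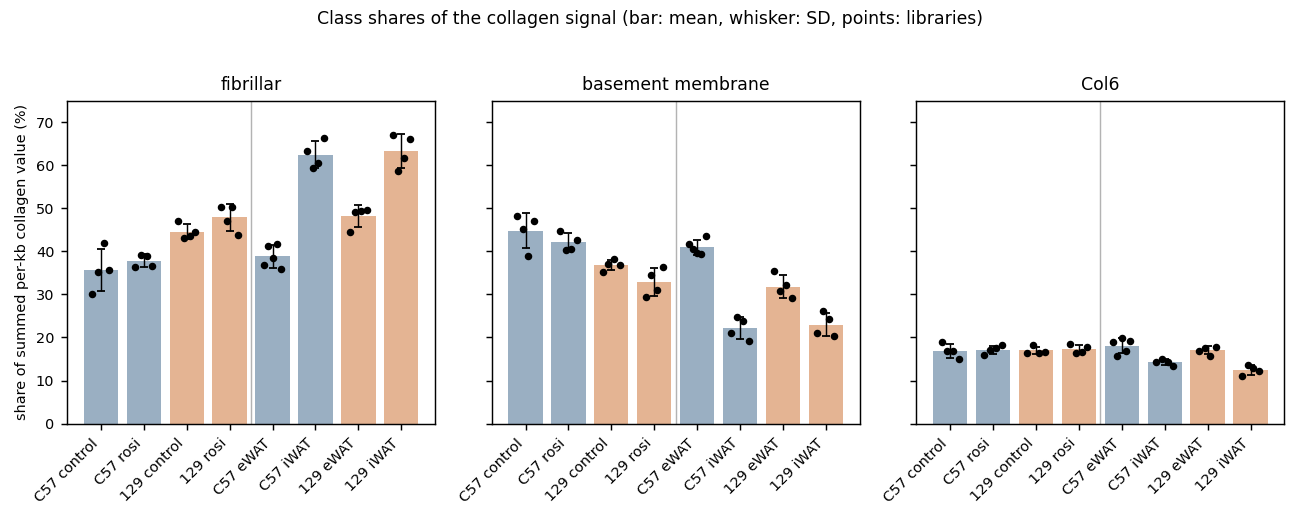
Share of the summed per-kb collagen value (%) held by the fibrillar, basement membrane and Col6 classes in the drug experiment (left of the grey line, eWAT) and after 12 weeks of low fat diet (right of it). Bars are group means, whiskers the SD and points single libraries, with C57BL/6 in blue and 129S1/SvImJ in orange. The iWAT libraries have the highest fibrillar shares, 58.6% to 67.1%.

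The depots differed in the genes of fibrillar types I and III, which were higher in iWAT, and in a small group of chains that were far lower there. In C57BL/6, 12 of 43 collagen genes were called between iWAT and eWAT, 7 higher and 5 lower in iWAT, where 13.1% of all symbols were called (5.27% higher, 7.81% lower). In 129S1/SvImJ, 9 were called, 4 higher and 5 lower, where 1.72% of all symbols were called (0.525% higher, 1.19% lower). All 9 were among the 12 of C57BL/6 with the same direction. The median log2 difference of the fibrillar class was 1.41 in C57BL/6 and 0.91 in 129S1/SvImJ, that of the basement membrane class -0.28 and -0.16, that of the Col6 class 0.02 and -0.48, and that of all symbols 0.00 in both. The depots stand in separate tables that share their highest values, and the library numbers of the 4 groups form 4 separate runs, so group and library series cannot be told apart.

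Col1a1, the alpha 1 chain of type I collagen, stood at 942, 747, 1082, 888 and 1053 in the 5 C57BL/6 eWAT libraries and at 5577, 5653, 5376 and 4302 in the 4 iWAT libraries. In 129S1/SvImJ it stood at 1708, 1904, 936 and 1769 in eWAT and at 3877, 4656, 5168 and 3374 in iWAT. All iWAT libraries were above all eWAT libraries of either strain. Its log2 difference was 2.47 ± 0.20 in C57BL/6 (adjusted p = 4.01e-06) and 1.47 ± 0.21 in 129S1/SvImJ (adjusted p = 0.00158, limma).

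Col1a2, which supplies the second chain of type I collagen, rose from 2505 to 3200 in C57BL/6 eWAT to 12799, 10492, 10085 and 8182 in iWAT. In 129S1/SvImJ it stood at 3119, 4035, 2467 and 3669 in eWAT and at 6474, 6511, 9417 and 6228 in iWAT. The groups did not overlap in either strain, with log2 differences of 1.81 ± 0.17 (adjusted p = 1.34e-05) and 1.11 ± 0.17 (adjusted p = 0.00357, limma).

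Col3a1, the single chain of type III collagen, averaged 9830 ± 908 (SD, n = 5) in C57BL/6 eWAT and 29337 ± 3101 (n = 4) in iWAT, and 13422 ± 2720 and 26978 ± 5702 (n = 4 each) in 129S1/SvImJ. It was higher in every iWAT library, by 1.58 ± 0.15 and 1.00 ± 0.15 on the log2 scale (adjusted p = 1.46e-05 and 0.00275, limma). In a fit of the 8 libraries of 129S1/SvImJ alone, the calls of Col1a1, Col1a2 and Col3a1 ended (adjusted p = 0.0949, 0.0984 and 0.118). The differences themselves stayed at 1.47, 1.11 and 1.00. Over all alternatives the adjusted p in 129S1/SvImJ ran from 0.000114 to 0.0949 for Col1a1, 0.00057 to 0.0984 for Col1a2 and 0.000768 to 0.118 for Col3a1.

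The minor fibrillar chains of type V were not called. Col5a1 averaged 2474 ± 598 in C57BL/6 iWAT and 1900 ± 443 in eWAT (0.38 ± 0.24, adjusted p = 0.373), and Col5a3 3204 ± 856 and 2689 ± 525 (0.23 ± 0.23, adjusted p = 0.664, limma). Col5a2 averaged 2875 ± 708 in C57BL/6 iWAT and 1621 ± 193 in eWAT (0.80 ± 0.25) and just missed the threshold (adjusted p = 0.0503, limma). It was called without C57BL/6 iWAT replicate 4 (0.99 ± 0.24, adjusted p = 0.018), with recentred libraries, with low genes left out and in a fit of the 2 groups alone, and its adjusted p over all alternatives ran from 0.00467 to 0.119. In 129S1/SvImJ it was not called (0.40 ± 0.26, adjusted p = 0.52). Col24a1 and Col27a1, fibrillar chains of cartilage and developing skeleton, were called in C57BL/6 at low levels. Col24a1 stood at 8, 19, 11 and 13 in iWAT and at 1 to 3 in eWAT, a log2 difference of 2.00 ± 0.33 (adjusted p = 0.00142, limma). The 8 and 11, in iWAT replicates 1 and 3, were the lowest values above the floor of any collagen gene in those libraries. The C57BL/6 iWAT libraries held only 467 to 679 distinct values, against 1691 to 1758 in C57BL/6 eWAT. The size of the Col24a1 difference is therefore imprecise. The same limit holds for the larger C57BL/6 depot differences given below for Col6a5, Col4a6 and Col8a2. Their values in several C57BL/6 iWAT libraries lay at the floor or at the lowest steps above it. Col27a1 stood at 108, 86, 31 and 118 against 24 to 34, so that 1 iWAT library overlapped eWAT (1.41 ± 0.33, adjusted p = 0.0119, limma). Its call was lost in a fit of the 2 groups alone (adjusted p = 0.0589, limma).

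**Figure D2:**
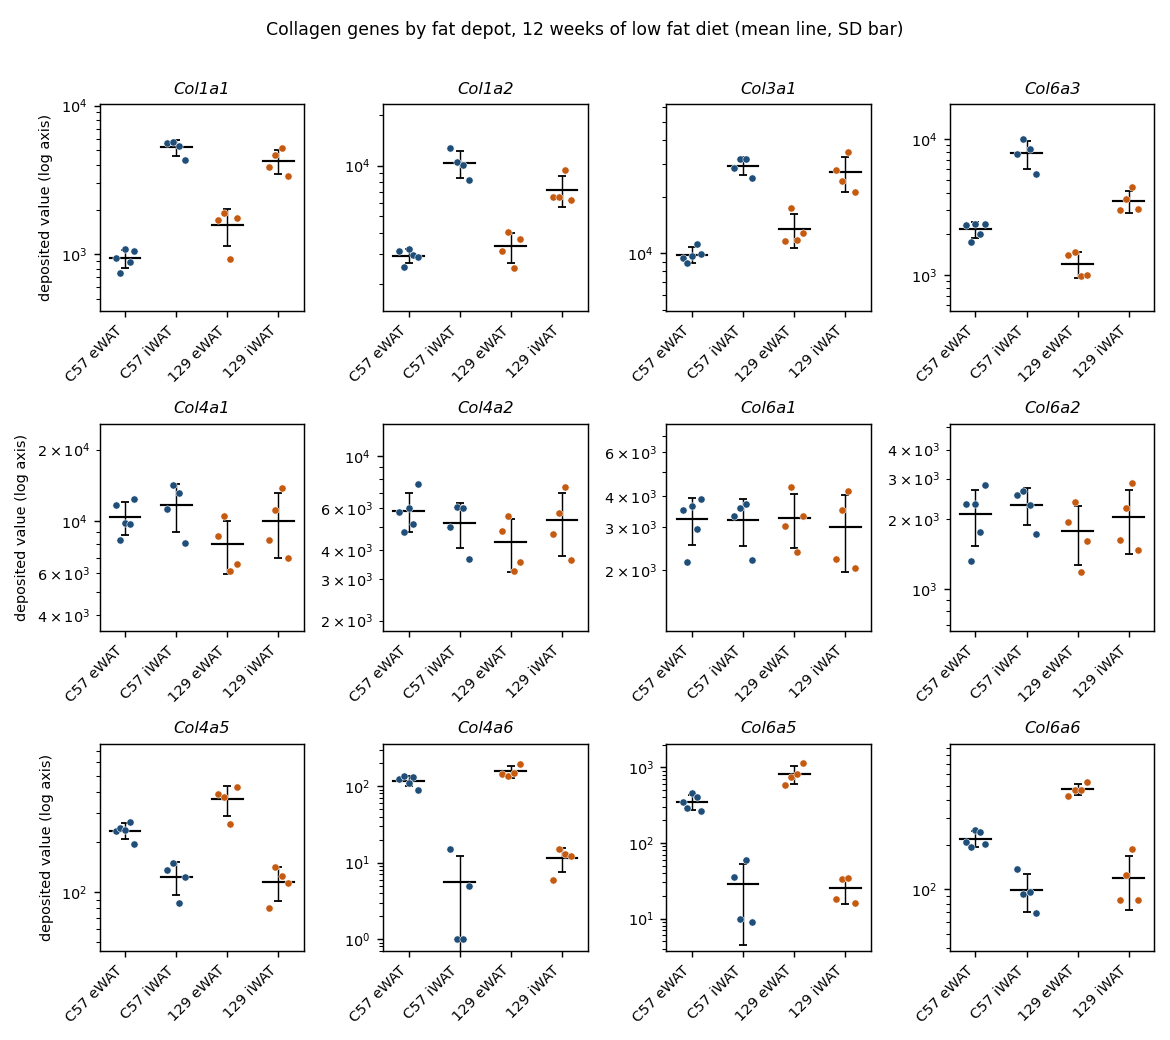
Normalized values (log axis) of 12 collagen genes in each library after 12 weeks of low fat diet, by strain and depot. Points are libraries, lines group means and bars the SD, cut at the bottom of the axis where it would pass it. Col1a1, Col1a2, Col3a1 and Col6a3 lie higher and Col4a5, Col4a6, Col6a5 and Col6a6 lower in iWAT in both strains, while the iWAT and eWAT libraries of Col4a1, Col4a2, Col6a1 and Col6a2 overlap.

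Type VI collagen split by chain. Col6a3, the long chain that holds endotrophin, stood at 2344, 1738, 2370, 1999 and 2392 in C57BL/6 eWAT and at 7693, 9949, 8365 and 5536 in iWAT (1.84 ± 0.19, adjusted p = 3.66e-05, limma). In 129S1/SvImJ it stood at 1407, 1475, 979 and 999 in eWAT and at 3006, 3602, 4419 and 3075 in iWAT (1.54 ± 0.20, adjusted p = 6.23e-04, limma). The depots did not overlap in either strain. Col6a1 and Col6a2, its partners in the common type VI trimer, were not called in either strain. The ratio of Col6a3 to Col6a1 was 0.61 to 0.81 in C57BL/6 eWAT and 2.24 to 2.79 in iWAT, and 0.30 to 0.46 and 1.02 to 1.5 in 129S1/SvImJ.

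The alternative type VI chains Col6a5 and Col6a6, which can take the place of the alpha 3 chain, were lower in iWAT. Col6a5 stood at 346, 287, 462, 404 and 262 in C57BL/6 eWAT and at 35, 10, 59 and 9 in iWAT, and in 129S1/SvImJ at 590, 746, 823 and 1133 against 18, 33, 34 and 16. Each iWAT library was below each eWAT library. Its log2 difference was -3.97 ± 0.47 in C57BL/6 (adjusted p = 1.52e-04) and -5.01 ± 0.50 in 129S1/SvImJ (adjusted p = 6.92e-05, limma). Col6a6 averaged 219.6 ± 26.1 in C57BL/6 eWAT and 98.2 ± 27.8 in iWAT (-1.19 ± 0.23, adjusted p = 0.00383), and 473 ± 42.6 and 119.8 ± 47.9 in 129S1/SvImJ (-2.05 ± 0.24, adjusted p = 2.71e-04, limma).

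Among type IV chains the common pair Col4a1 and Col4a2 was not called between depots, and Col4a5 and Col4a6 were lower in iWAT in both strains. Col4a6 stood at 125, 134, 109, 131 and 89 in C57BL/6 eWAT and at 15, 1, 1 and 5 in iWAT, of which 2 libraries were at the floor. The 129S1/SvImJ libraries stood at 144, 135, 148 and 197 against 6, 15, 13 and 12. The groups were far apart in both strains, with log2 differences of -4.73 ± 0.50 (adjusted p = 5.25e-05) and -3.70 ± 0.53 (adjusted p = 0.00158, limma). Col4a5 averaged 233.6 ± 25.7 and 123.5 ± 27.2 in C57BL/6 (-0.94 ± 0.20, adjusted p = 0.00683) and 361 ± 74.6 and 114.8 ± 25.9 in 129S1/SvImJ (-1.65 ± 0.21, adjusted p = 5.42e-04, limma). Col4a3 was called higher in C57BL/6 iWAT (74.8 ± 24.2 against 37.8 ± 6.14, 0.92 ± 0.28, adjusted p = 0.0498, limma), and this call was lost in 8 of 9 fits that left out 1 library, with adjusted p of 0.0592 to 0.131.

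Col4a5 and Col4a6 are neighbours on the X chromosome that are read in opposite directions, with RefSeq starts 1343 bases apart. The 250 bases before each start are shown because both genes were lower in iWAT. They were read from RefSeq windows on the build GRCm38.p6, and capitals mark the CCAAT box, the GC box GGGCGG and the TATA-type run TATAAA, each searched on both strands.
Col4a5 (chrX:141475169-141475418, plus strand): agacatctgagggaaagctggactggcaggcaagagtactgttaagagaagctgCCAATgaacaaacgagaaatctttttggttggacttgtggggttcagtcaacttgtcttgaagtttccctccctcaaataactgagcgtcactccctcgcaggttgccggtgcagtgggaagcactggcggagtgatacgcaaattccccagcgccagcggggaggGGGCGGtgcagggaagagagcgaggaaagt
Col4a6 (chrX:141474077-141474326, minus strand): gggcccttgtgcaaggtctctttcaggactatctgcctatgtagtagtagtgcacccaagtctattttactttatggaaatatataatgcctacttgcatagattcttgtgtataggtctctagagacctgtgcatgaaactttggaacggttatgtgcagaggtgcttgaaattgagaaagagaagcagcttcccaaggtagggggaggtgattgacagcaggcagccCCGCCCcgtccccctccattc
Col4a5 held a CCAAT and a GGGCGG match and Col4a6 a GGGCGG match alone. Among all 32851 windows, 33.8% held CCAAT, 32.7% GGGCGG and 12.4% TATAAA.

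The windows of Col1a2 and Col3a1 are shown because both were higher in iWAT. Col1a1 is named only.
Col1a2 (chr6:4505368-4505617, plus strand): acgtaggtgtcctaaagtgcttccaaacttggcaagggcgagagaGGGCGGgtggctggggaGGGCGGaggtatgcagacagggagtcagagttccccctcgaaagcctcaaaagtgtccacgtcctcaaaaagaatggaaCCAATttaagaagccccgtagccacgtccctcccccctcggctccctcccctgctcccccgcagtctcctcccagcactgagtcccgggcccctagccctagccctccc
Col3a1 (chr1:45311288-45311537, plus strand): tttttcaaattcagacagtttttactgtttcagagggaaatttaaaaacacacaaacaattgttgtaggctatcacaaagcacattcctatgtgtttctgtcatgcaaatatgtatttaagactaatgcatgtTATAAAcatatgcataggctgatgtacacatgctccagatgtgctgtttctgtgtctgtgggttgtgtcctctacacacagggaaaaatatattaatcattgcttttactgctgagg
They had little in common by this search: Col1a2 held 1 CCAAT and 2 GGGCGG matches at 62% GC, and Col3a1 held 1 TATAAA match at 35.2% GC. A match describes the letters and shows neither a bound factor nor a cause.

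Of the basement membrane zone genes, Col18a1 averaged 873 ± 276 in C57BL/6 iWAT and 1533 ± 232 in eWAT (-0.86 ± 0.28, adjusted p = 0.0592, limma) and was not called. It was called without C57BL/6 iWAT replicate 2 (-1.0 ± 0.3, adjusted p = 0.0498), with low genes left out and without the libraries with high lymphocyte markers, and its adjusted p over all alternatives ran from 0.0119 to 0.155. Col4a1 differed by 0.15 ± 0.23 in C57BL/6 (adjusted p = 0.827) and by 0.32 ± 0.24 in 129S1/SvImJ (adjusted p = 0.603, limma). The short chain collagen Col8a2 was low in eWAT of this diet and lower in iWAT, at 1, 1, 1 and 5 against 14 to 34 in C57BL/6 (-3.19 ± 0.40, adjusted p = 2.07e-04) and at 1, 6, 2 and 2 against 24 to 27 in 129S1/SvImJ (-2.97 ± 0.42, adjusted p = 0.00139, limma).

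Of 28 genes for collagen maturation, 3 were higher and 3 lower in C57BL/6 iWAT, where 5.27% of all symbols were higher and 7.81% lower. In 129S1/SvImJ iWAT 1 was lower, where 1.19% of all symbols were lower. Pcolce, which speeds the trimming of procollagen ends, averaged 524 ± 117 in C57BL/6 iWAT and 224 ± 22.7 in eWAT (1.2 ± 0.18, adjusted p = 8.53e-04), and the crosslinking enzyme Lox 649 ± 154 and 251.6 ± 28.3 (1.34 ± 0.32, adjusted p = 0.0129, limma). The lysyl hydroxylase Plod2 was the lower gene in 129S1/SvImJ, at 40 ± 14 against 92.8 ± 1.26 (-1.26 ± 0.23, adjusted p = 0.00959, limma). Of 12 receptor and uptake genes, 1 was called, Ddr1, which was lower in C57BL/6 iWAT (-1.15 ± 0.31, adjusted p = 0.0255, limma), where 13.1% of all symbols were called.

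Markers of other cell types moved with the depot. Mesothelial markers, of the cell layer that covers visceral fat, summed to 1834 to 2745 in C57BL/6 eWAT and 1526 to 1863 in 129S1/SvImJ eWAT, and to 6 to 22 and 18 to 27 in iWAT. All 6 were called lower in iWAT in both strains, and Wt1 was at the floor in every iWAT library. Schwann cell markers were higher in iWAT, 5 of 6 called in C57BL/6 and 2 of 6 in 129S1/SvImJ, and so were 4 of 7 stromal progenitor markers in C57BL/6 and none in 129S1/SvImJ. Of 6 epithelial markers 3 were lower in iWAT in each strain, and 2 of 6 adipocyte markers were lower in C57BL/6. Of 7 endothelial markers, 1 was lower in C57BL/6 and 1 higher in 129S1/SvImJ. Lymphocyte markers summed to 1308 in C57BL/6 iWAT replicate 4 and to 2825 and 970 in 129S1/SvImJ iWAT replicates 1 and 4, against 16 to 100 in the other 14 libraries of this diet. Without these 3 libraries, all 21 depot calls of collagen genes held. The iWAT groups then held only replicates 1, 2 and 3 of C57BL/6 and replicates 2 and 3 of 129S1/SvImJ. Other genes were newly called in this setting. In 129S1/SvImJ this was Col6a4, lower in iWAT (-2.99 ± 0.58, adjusted p = 0.0367, limma). In C57BL/6, Col5a2 and Col11a1 were newly called higher in iWAT, and Col7a1 and Col18a1 lower. The part of the other marker differences in the collagen result was not tested.

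No collagen gene was called for a depot difference that differed between strains, where 3.14% of all symbols were called, and 9 of the 43 had an unadjusted p under 0.05 (limma). Col1a1 came closest among the named genes, with a depot difference 1.01 ± 0.29 smaller in 129S1/SvImJ on the log2 scale (adjusted p = 0.0834, limma). It was called without 129S1/SvImJ eWAT replicate 3, the library with the lowest Col1a1 of its group (-1.24 ± 0.21, adjusted p = 0.0137). Col6a6 (-0.86 ± 0.33, adjusted p = 0.195) and Col6a3 (-0.30 ± 0.27, adjusted p = 0.658) were not called.

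**Figure D3:**
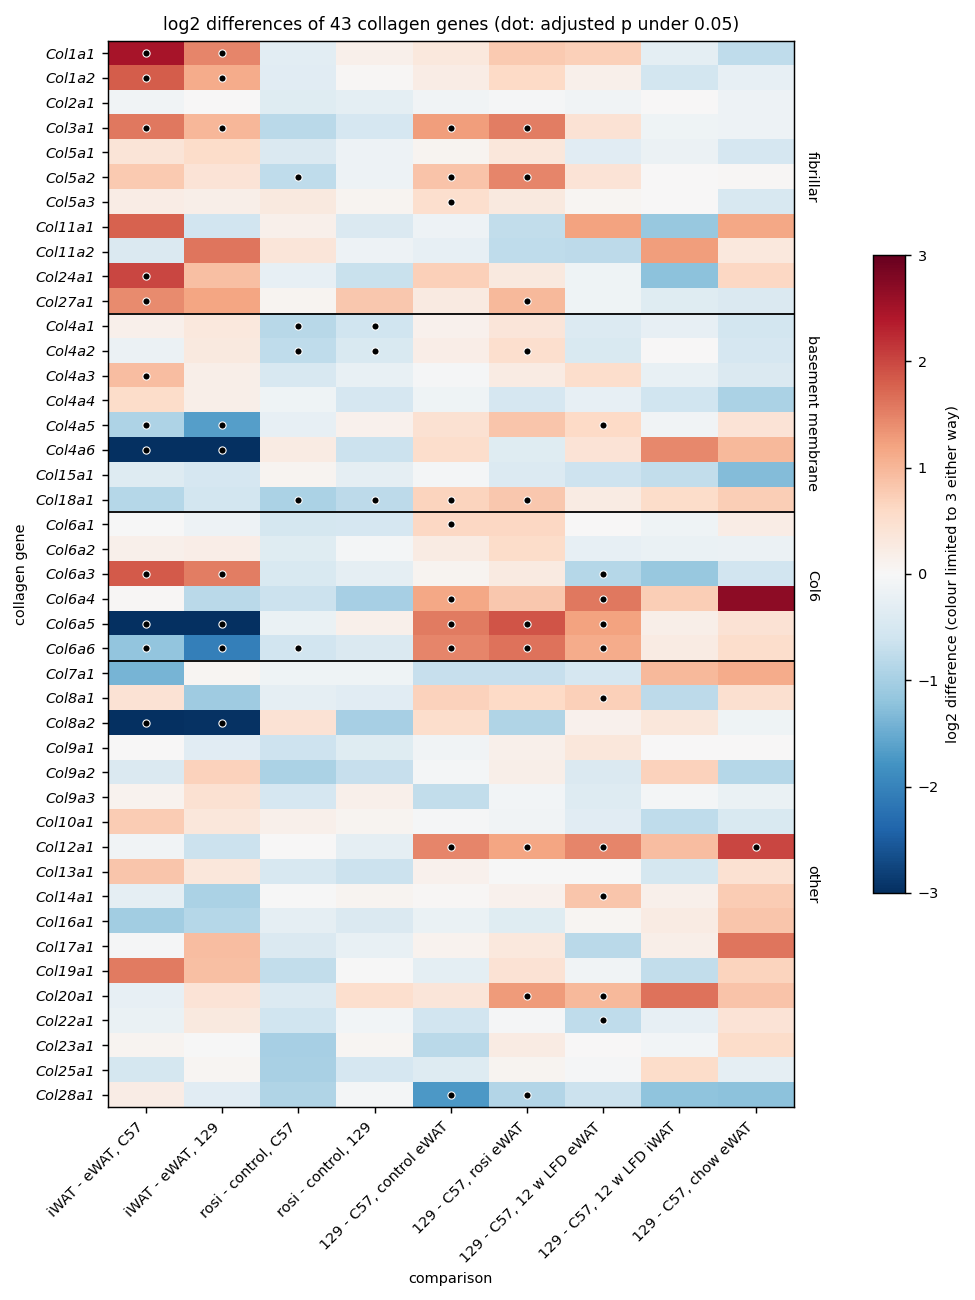
log2 differences of the 43 collagen genes (rows, by class) in 9 comparisons (columns), red for higher and blue for lower in the first-named group, with colour limited to 3 either way. A black dot marks an adjusted p under 0.05 (limma). The drug columns hold only blue dots, 5 in C57BL/6 and 3 in 129S1/SvImJ, and the iWAT strain column holds none.

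On rosiglitazone, 3 basement membrane collagen genes were lower in both strains. In C57BL/6, 5 of 43 collagen genes were called and all were lower on the drug, where 2.43% of all symbols were called (1.53% higher, 0.901% lower). In 129S1/SvImJ, 3 were called, all lower, where 5.51% of all symbols were called (2.96% higher, 2.56% lower). The 3 genes Col4a1, Col4a2 and Col18a1 were called in both strains. Of the 8 basement membrane genes these were the 3 called. The class as a whole did not stand apart in C57BL/6. Its median log2 difference was -0.36, against -0.32 for fibrillar, -0.49 for Col6 and -0.46 for other genes. In 129S1/SvImJ these medians were -0.48, -0.16, -0.35 and -0.17. The basement membrane share averaged 44.8% ± 4.09 (SD) on control and 42.1% ± 2.08 on the drug in C57BL/6. It averaged 36.8% ± 1.24 and 32.8% ± 3.21 in 129S1/SvImJ, and the shares were not tested. Estimates were below 0 for 34 of 43 genes in C57BL/6 and 32 of 43 in 129S1/SvImJ. Their median was -0.42 and -0.27, against 0.00 over all symbols in both.

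Col4a1, one chain of the common type IV trimer, stood at 9311, 10046, 10750 and 7812 on control diet and at 5176, 6358, 5176 and 4700 on rosiglitazone in C57BL/6. In 129S1/SvImJ it stood at 10236, 8951, 12665 and 9671 on control and at 8131, 6303, 7128 and 6013 on the drug. The drug libraries were each below each control library of its strain. The log2 difference was -0.82 ± 0.12 in C57BL/6 (adjusted p = 6.83e-04) and -0.59 ± 0.12 in 129S1/SvImJ (adjusted p = 0.0053, limma).

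Col4a2, the partner chain, stood at 5728, 5728, 5931 and 4531 on control and at 3298, 3533, 3100 and 2942 on the drug in C57BL/6, and at 6857, 5685, 6765 and 5901 against 5000, 4253, 4885 and 4157 in 129S1/SvImJ. Control and drug libraries again did not overlap. It fell by 0.76 ± 0.10 (adjusted p = 1.55e-04) and by 0.46 ± 0.10 (adjusted p = 0.00661, limma) on the log2 scale. Col4a1 and Col4a2 are neighbours on chromosome 8 and are read in opposite directions, with RefSeq starts 21 bases apart. The 22 bases from one start to the other are shown because both genes fell together, with GGGCGG in capitals:
Col4a1 and Col4a2 starts (chr8:11312805-11312826, GRCm38.p6, plus strand): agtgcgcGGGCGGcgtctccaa
The ratio of Col4a1 to Col4a2 ran from 1.45 to 2.33 over all 43 libraries, with a median of 1.75. It was not the same in all groups: C57BL/6 iWAT lay at 2.18 to 2.33, above every other library (2.02 at most). The lowest group median was 1.47, in 129S1/SvImJ eWAT on rosiglitazone.

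Col18a1, whose end fragment is endostatin, stood at 1298, 1520, 1614 and 1205 on control and at 562, 921, 768 and 702 on the drug in C57BL/6. The 129S1/SvImJ values were 2398, 2702, 1770 and 2088 against 1460, 1044, 1139 and 1551. All drug libraries of a strain were below its controls, by 0.94 ± 0.16 (adjusted p = 0.00155) and 0.79 ± 0.16 (adjusted p = 0.00333, limma) on the log2 scale. Col15a1, the other collagen of the basement membrane zone, did not follow: it averaged 3474 ± 637 on control and 2878 ± 562 on the drug in 129S1/SvImJ (-0.28 ± 0.20, adjusted p = 0.544, limma), with overlapping libraries, and was not called in C57BL/6.

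In C57BL/6 the drug also lowered Col5a2, the alpha 2 chain of type V, from 1227 ± 339 to 703 ± 84.8 (-0.77 ± 0.15, adjusted p = 0.00817, limma), and Col6a6, from 123.2 ± 13.9 to 82.2 ± 10.1 (-0.58 ± 0.14, adjusted p = 0.0333, limma). In 129S1/SvImJ, Col5a2 averaged 2162 ± 175 and 1952 ± 345 (-0.16 ± 0.15, adjusted p = 0.681, limma). The Col6a6 call was lost without C57BL/6 control replicate 1, 3 or 4 or drug replicate 1 or 3, with adjusted p of 0.0548 to 0.108. Col3a1 averaged 6091 ± 2910 on control and 3299 ± 687 on the drug in C57BL/6 (-0.80 ± 0.28, adjusted p = 0.186) and 13501 ± 1689 and 9743 ± 2844 in 129S1/SvImJ (-0.51 ± 0.28, adjusted p = 0.392, limma), and was called in neither. Col6a1 was not called with all libraries in C57BL/6 (-0.53 ± 0.20, adjusted p = 0.208), and was called without control replicate 4 (-0.71 ± 0.17, adjusted p = 0.0273, limma). Without 129S1/SvImJ drug replicate 4 the count there was 5, with Col6a4 and Col8a2 added.

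**Figure D4:**
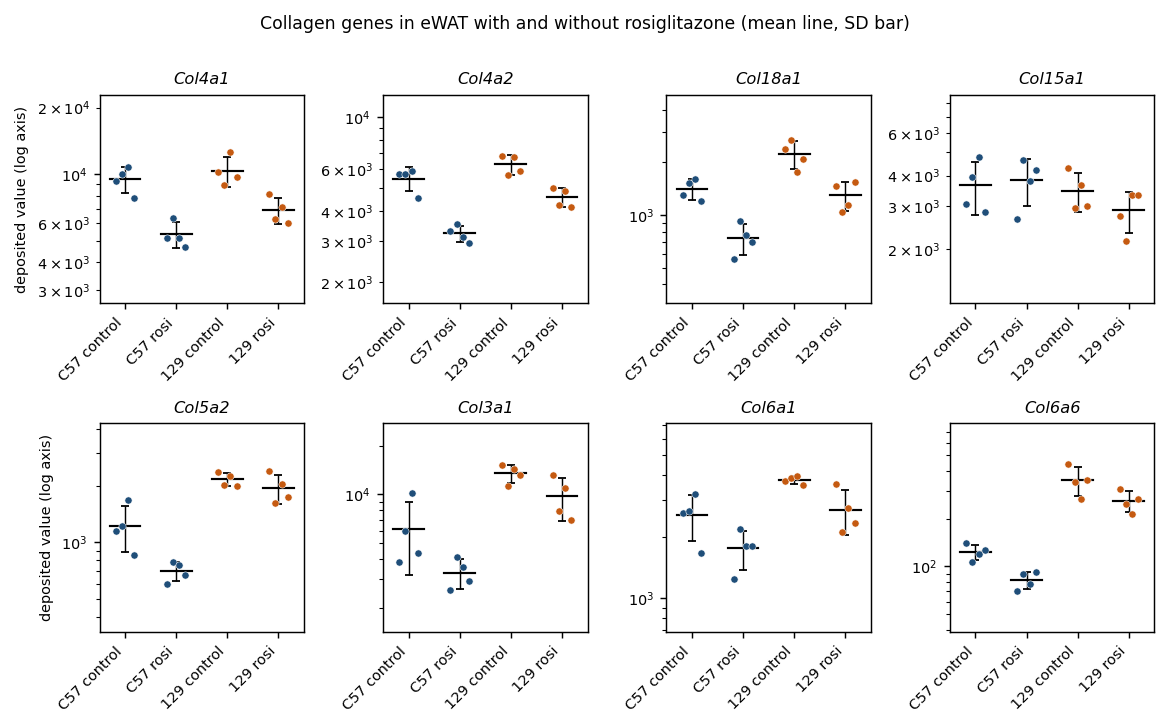
Normalized values (log axis) of 8 collagen genes in eWAT libraries on control diet or rosiglitazone, by strain, with the mean as a line and the SD as a bar (n = 4 per group). For Col4a1, Col4a2 and Col18a1 the drug libraries lie below the control libraries of the same strain, while those of Col15a1 overlap.

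These drug calls rest on a spread estimated from all 16 libraries of the experiment. In fits of the 8 libraries of 1 strain, none was called in C57BL/6 (adjusted p = 0.0702 for Col4a1, 0.0518 for Col4a2 and 0.092 for Col18a1) and 1 was called in 129S1/SvImJ, Col4a2 (adjusted p = 0.0468). The differences were the same in size. Over all alternatives the adjusted p ran from 0.000273 to 0.0702 for Col4a1, 2.91e-05 to 0.0518 for Col4a2 and 0.000618 to 0.092 for Col18a1 in C57BL/6, and from 0.00311 to 0.0741, 0.00293 to 0.0468 and 0.00165 to 0.0699 in 129S1/SvImJ. No collagen gene was called for a drug response that differed between strains, where 0.21% of all symbols were called, and 6 of the 43 had an unadjusted p under 0.05 (limma). The response of 129S1/SvImJ minus that of C57BL/6 was 0.24 ± 0.18 for Col4a1, 0.30 ± 0.14 for Col4a2, 0.16 ± 0.22 for Col18a1 and 0.61 ± 0.22 for Col5a2 on the log2 scale (adjusted p = 0.717, 0.487, 0.866 and 0.304, limma). Of the marker lists, 1 of 6 macrophage genes and 1 of 6 pericyte and smooth muscle genes were lower on the drug in each strain, and none of 7 endothelial genes was called in either. Of 6 adipocyte markers, 1 was higher in C57BL/6 and 2 in 129S1/SvImJ, with sums of 96967 to 115155 on control and 116910 to 133052 on the drug in C57BL/6, and of 101038 to 113170 and 142272 to 150748 in 129S1/SvImJ. In addition, 1 lymphocyte marker was higher in C57BL/6, and 1 stromal progenitor and 1 Schwann cell marker were lower in 129S1/SvImJ. The part of these markers in the collagen result was not tested.

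Of 28 genes that process collagen, none was called higher on the drug and 8 were lower in 129S1/SvImJ, where 2.56% of all symbols were lower, and 1 was lower in C57BL/6, where 0.901% were. Adamts2, which cuts the amino-terminal end from fibrillar procollagens, was lower in both strains, at 401 ± 45.6 on the drug against 626 ± 50.8 in C57BL/6 (-0.65 ± 0.11, adjusted p = 0.00155) and at 405 ± 37.6 against 783 ± 104 in 129S1/SvImJ (-0.95 ± 0.11, adjusted p = 8.44e-06, limma). The chaperone Serpinh1, which binds procollagen in the endoplasmic reticulum, averaged 2979 ± 122 on control and 1720 ± 264 on the drug in 129S1/SvImJ (-0.80 ± 0.12, adjusted p = 3.06e-04). Crtap and P4hb, both parts of proline hydroxylase complexes, were lower there too (-0.77 ± 0.11 and -0.56 ± 0.09, adjusted p = 1.37e-04 and 2.83e-04, limma). Of 12 collagen receptors and uptake genes, 1 was lower in each strain, Ddr2 in C57BL/6 (-0.46 ± 0.11, adjusted p = 0.023) and Antxr2 in 129S1/SvImJ (-0.60 ± 0.10, adjusted p = 7.95e-04, limma).

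Between strains, 129S1/SvImJ eWAT had higher Col3a1, Col5a2, Col6a5 and Col6a6 on both diets of the drug experiment. On control diet 10 of 43 collagen genes were called, 9 higher and 1 lower in 129S1/SvImJ, where 17.5% of all symbols were called (10.0% higher, 7.5% lower). On rosiglitazone 10 were called, 9 higher and 1 lower, where 10.7% of all symbols were called (5.45% higher, 5.23% lower). Both comparisons share their libraries with the drug comparisons, and 1 estimate of spread with each other. In fits of the compared libraries alone each gave 6 calls: Col12a1 (adjusted p = 0.0984), Col5a3 (0.133), Col6a1 (0.0961) and Col6a4 (0.12) were lost on control, and Col18a1 (0.0608), Col20a1 (0.065), Col27a1 (0.0814) and Col28a1 (0.108) on the drug. Of the 6 Col6 genes, 4 were higher on control and 2 on the drug, and of the 11 fibrillar genes 3 and 3.

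Col6a6 stood at 140, 107, 119 and 127 in C57BL/6 and at 441, 340, 265 and 348 in 129S1/SvImJ on control diet, and at 70, 89, 78 and 92 against 306, 246, 213 and 265 on the drug. The strains were fully apart on both diets, by 1.48 ± 0.14 (adjusted p = 4.81e-07) and 1.63 ± 0.14 (adjusted p = 1.13e-07, limma). Col6a5 stood at 160, 135, 222 and 148 against 657, 505, 445 and 362 on control, and at 119, 135, 157 and 162 against 654, 477, 668 and 379 on the drug. It too was higher in every 129S1/SvImJ library, by 1.55 ± 0.20 (adjusted p = 3.08e-05) and 1.89 ± 0.20 (adjusted p = 3.76e-06, limma). Col6a6, Col6a5 and Col6a4 are consecutive protein-coding genes on chromosome 9 in RefSeq GRCm38.p6. Col6a4 averaged 22.8 ± 3.86 and 10.8 ± 6.13 on control (1.16 ± 0.35, adjusted p = 0.0258, limma), a call lost in 5 of 8 fits without 1 library (without 129S1/SvImJ replicate 1, 3 or 4 or C57BL/6 replicate 1 or 3).

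Col3a1 and Col5a2 are neighbours on chromosome 1 and were higher in 129S1/SvImJ on both diets. Col3a1 stood at 3816, 5962, 10236 and 4350 in C57BL/6 and at 15186, 11318, 14393 and 13106 in 129S1/SvImJ on control, and at 2580, 4133, 3555 and 2927 against 13106, 7918, 11028 and 6919 on the drug. The strains did not overlap, and differed by 1.25 ± 0.28 (adjusted p = 0.00636) and 1.54 ± 0.28 (adjusted p = 0.00248, limma). Col5a2 stood at 1151, 1222, 1678 and 858 against 2370, 2031, 2244 and 2005 on control (0.85 ± 0.15, adjusted p = 6.24e-04), and at 600, 786, 757 and 669 against 2391, 1615, 2053 and 1750 on the drug (1.46 ± 0.15, adjusted p = 1.86e-06, limma). The type I genes were not called: Col1a1 differed by 0.31 ± 0.39 (adjusted p = 0.684) and Col1a2 by 0.23 ± 0.28 (adjusted p = 0.67) on control, and by 0.78 ± 0.39 (adjusted p = 0.259) and 0.59 ± 0.28 (adjusted p = 0.221, limma) on the drug, with overlapping libraries.

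Among the other strain calls, Col18a1 was higher in 129S1/SvImJ on control (2240 ± 401 against 1409 ± 190, 0.66 ± 0.16, adjusted p = 0.00519) and on the drug (1298 ± 245 against 738 ± 149, 0.82 ± 0.16, adjusted p = 0.00155, limma). Col4a2 was higher on the drug (0.51 ± 0.10, adjusted p = 0.00198) and not called on control (0.20 ± 0.10, adjusted p = 0.188, limma). Col4a1 was not called on the drug (0.36 ± 0.12, adjusted p = 0.0671, and 0.0343 to 0.222 over all alternatives) or on control (0.13 ± 0.12, adjusted p = 0.569, limma). Col12a1, which lies along fibril surfaces, was higher on control (492 ± 230 against 179.8 ± 79.9, 1.48 ± 0.36, adjusted p = 0.0107) and on the drug (1.19 ± 0.36, adjusted p = 0.0489, limma), the latter lost whichever drug library was left out. Col28a1, a collagen known from peripheral nerve, was the one lower gene, at 52, 86, 36 and 39 in C57BL/6 against 10, 16, 14 and 19 on control (-1.73 ± 0.28, adjusted p = 2.31e-04, limma). Col5a3 and Col6a1 (control) and Col20a1 and Col27a1 (drug) complete the calls, with log2 differences of 0.51, 0.61, 1.28 and 0.98. The Col6a1 call was lost in 7 of 8 fits without 1 library, all but that without C57BL/6 control replicate 3. The Col27a1 call was lost without C57BL/6 drug replicate 1 (adjusted p = 0.0652), and that of Col28a1 on the drug (-0.89 ± 0.28, adjusted p = 0.0471) in 6 of 8.

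**Figure D5:**
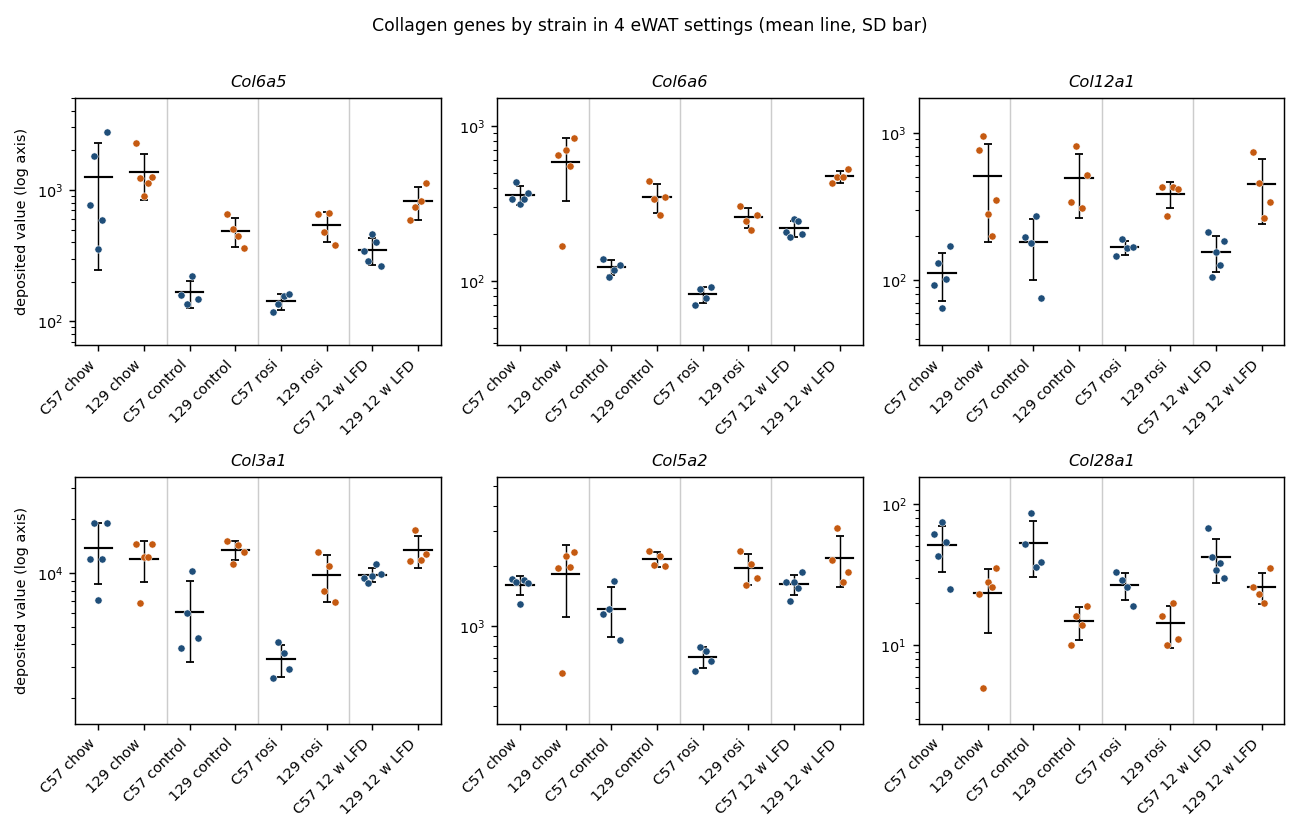
Normalized values (log axis) of 6 collagen genes in eWAT by strain in 4 settings, separated by grey lines, with the mean as a line and the SD as a bar. Chow values were normalized apart, so heights are to be read only between the strains of a setting. In the 3 low fat diet settings every 129S1/SvImJ library of Col6a5 and Col6a6 lies above every C57BL/6 library.

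After 12 weeks of low fat diet, in the eWAT libraries also used for the depots, 10 of 43 collagen genes were called between the strains, 8 higher and 2 lower in 129S1/SvImJ, where 21.7% of all symbols were called (11.6% higher, 10.2% lower). Col6a6 (473 ± 42.6 against 219.6 ± 26.1, 1.11 ± 0.10, adjusted p = 5.29e-04), Col6a5 (823 ± 228 against 352 ± 82.4, 1.21 ± 0.24, adjusted p = 0.0107) and Col6a4 (19 ± 5.6 against 5.6 ± 1.52, 1.59 ± 0.23, adjusted p = 0.00329, limma) were higher, with no overlap between strains. Col6a3 went the other way, at 2344, 1738, 2370, 1999 and 2392 in C57BL/6 and 1407, 1475, 979 and 999 in 129S1/SvImJ (-0.85 ± 0.17, adjusted p = 0.0114, limma). In the drug experiment Col6a3 was not called between the strains. Its log2 difference was 0.07 on control (adjusted p = 0.9) and 0.27 on the drug (adjusted p = 0.537, limma). It was not called on chow either (adjusted p = 0.241, limma). Col12a1 (1.46 ± 0.34, adjusted p = 0.0215) and Col14a1 (0.83 ± 0.17, adjusted p = 0.0122), both of which decorate fibrils, and Col20a1 (0.98 ± 0.15, adjusted p = 0.00379, limma) were higher. Col22a1 was at the floor in all 4 129S1/SvImJ libraries and at 2 or 3 in C57BL/6, so its call rests on the floor.

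Col4a5 (0.61 ± 0.16, adjusted p = 0.0356) and Col8a1 (0.71 ± 0.19, adjusted p = 0.0378, limma) were called with all libraries, and each call was lost in 8 of 9 fits without 1 library, all but that without 129S1/SvImJ replicate 3. The Col12a1 call was lost without 129S1/SvImJ replicate 2 or C57BL/6 replicate 4 (adjusted p = 0.0562 at most). Col3a1 (13422 ± 2720 against 9830 ± 908, 0.43 ± 0.13, adjusted p = 0.0571) and Col5a2 (0.40 ± 0.19, adjusted p = 0.187, limma) were not called. Their direction was that of the drug experiment, and the experiments were not compared by a test. For Col3a1 the strains did not overlap, at 8826 to 11273 in C57BL/6 and 11643 to 17430 in 129S1/SvImJ. It was called with recentred libraries (adjusted p = 0.0467, limma), and its adjusted p over all alternatives ran from 0.0189 to 0.25. With genes of low values left out, the count was 17, with Col1a1, Col3a1, Col15a1 and Col4a2 among those added, and 44.3% of the symbols tested were called. With the replicate number as a block the count was 1, Col6a6 (adjusted p = 0.0299, limma).

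In the same eWAT libraries, all 7 endothelial markers were lower in 129S1/SvImJ, summing to 1923 to 2643 against 4732 to 5269 in C57BL/6, and 4 of 6 pericyte and smooth muscle markers were lower. On control diet 5 of 7 endothelial markers were lower, summing to 2378 to 2980 against 3598 to 5658. The vessel-associated genes Col4a1 (-0.40 ± 0.19, adjusted p = 0.206), Col4a2 (-0.46 ± 0.20, adjusted p = 0.162) and Col15a1 (-0.62 ± 0.18, adjusted p = 0.0514, limma) were not called after 12 weeks, nor on control diet, where the estimates were 0.13 ± 0.12, 0.20 ± 0.10 and -0.06 ± 0.20 (adjusted p = 0.569, 0.188 and 0.935, limma). Skeletal muscle markers summed to 10290 in C57BL/6 replicate 3 and to 173 to 569 in the other 8 libraries. The part of these markers in the strain differences was not tested.

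Maturation genes differed between strains as well. The crosslinking enzyme Loxl2 was higher in 129S1/SvImJ eWAT in all 3 low fat diet settings of this depot, by 1.87 ± 0.19 on control (932 ± 67.8 against 272 ± 124), 2.02 ± 0.19 on the drug (798 ± 43 against 197.5 ± 29) and 1.59 ± 0.16 after 12 weeks (1237 ± 307 against 400.8 ± 22.5), with adjusted p of 3.92e-06, 1.67e-06 and 7.61e-04 (limma). Serpinh1 was lower in 129S1/SvImJ after 12 weeks, at 1844 ± 437 against 4843 ± 536 (-1.42 ± 0.18, adjusted p = 0.0017, limma). Of the 28 genes, 9 were higher and 1 lower on control, 2 and 4 on the drug, and 4 and 9 after 12 weeks, where 17.5%, 10.7% and 21.7% of all symbols were called. On chow 1 was higher, and in iWAT none was called between the strains, where 4.99% and 1.69% of all symbols were called. Some genes were called in opposite directions on control diet and after 12 weeks. Plod3 differed by 0.36 ± 0.09 and -0.75 ± 0.10, and Ppib by 0.49 ± 0.10 and -0.57 ± 0.15. Loxl2, Crtap and Plod1, also called in both, kept their direction. The 2 experiments were not compared by a test.

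In iWAT no collagen gene was called between the strains, where 1.69% of all symbols were called, and 7 of the 43 had an unadjusted p under 0.05 (limma). Col6a3 was nearest to the threshold, at 7693, 9949, 8365 and 5536 in C57BL/6 and 3006, 3602, 4419 and 3075 in 129S1/SvImJ (-1.15 ± 0.21, adjusted p = 0.0722, limma). The strains did not overlap. It was called with genes of low values left out (adjusted p = 0.0178) and without the 3 libraries with high lymphocyte markers (-1.11 ± 0.14, adjusted p = 0.00824), and its adjusted p over all alternatives ran from 0.00824 to 0.466.

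On chow, 1 collagen gene was called between the strains, where 4.99% of all symbols were called (2.39% higher, 2.61% lower in 129S1/SvImJ). This was Col12a1, at 92, 131, 65, 102 and 169 in C57BL/6 and 762, 954, 281, 200 and 352 in 129S1/SvImJ (2.00 ± 0.47, adjusted p = 0.0498, limma). The strains did not overlap, but the call was lost in 8 of 10 fits without 1 library, all but those without 129S1/SvImJ replicate 2 or 4. Col15a1 stood at 5623, 5008, 3214, 4269 and 3873 in C57BL/6 and at 1749, 509, 2397, 2818 and 2713 in 129S1/SvImJ. It was lower in every 129S1/SvImJ library and was not called (-1.30 ± 0.47, adjusted p = 0.189, limma).

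Chow libraries carried markers of neighbouring tissue. Epididymis markers summed to 34007 and 210508 in 129S1/SvImJ replicates 1 and 2 and to 45 to 145 in the other 8 libraries, and adipocyte markers to 16489 in replicate 2 against 89931 to 126357 in the rest of its group. Epithelial markers summed to 2712 and 6372 in replicates 1 and 2 against 88 to 166 in the rest of the group. Replicate 1 also had pericyte and smooth muscle markers of 48171 against 2587 to 4119, and skeletal muscle markers of 2224 against 27 to 202. It was high in Col4a5 (1036 against 346 to 508), Col4a6 (687 against 126 to 233), Col6a5 (2271 against 898 to 1263) and Col1a2 (5551 against 3670 to 3951). Replicate 2 had the lowest Col4a1 (2380, against 7228 to 8003), Col4a2 (1493), Col5a1 (685), Col5a2 (588), Col5a3 (569) and Col15a1 (509) of its group, and a Col6a4 of 2028 against 24 to 43. Without it 6 collagen genes were called: Col12a1 and, newly, Col6a6 (0.93 ± 0.14, adjusted p = 0.00732), Col18a1 (0.89 ± 0.17, adjusted p = 0.0171), Col6a4 (1.54 ± 0.35, adjusted p = 0.0298), Col15a1 (-0.86 ± 0.20, adjusted p = 0.0366) and Col5a2 (0.41 ± 0.10, adjusted p = 0.0433, limma). Without replicates 1 and 2 the count was 2, Col18a1 and Col6a6.

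In the C57BL/6 chow group, epithelial markers summed to 1716 and 1855 in replicates 2 and 5 and to 32 to 63 in the other 3. In the same 2 libraries Col4a3 stood at 369 and 429 against 54 to 79, Col4a4 at 503 and 647 against 76 to 102, Col8a2 at 229 and 310 against 8 to 37, and Col6a5 at 1801 and 2778 against 359 to 764. These genes were chosen after their values were seen. Col4a3 and Col4a4 are neighbours on chromosome 1 whose chains assemble with the Col4a5 chain in certain epithelial basement membranes. Col1a1 stood at 4667 and 5142 in these libraries and at 966 to 2758 in the others. Without these 2 and the 2 129S1/SvImJ libraries, 3 collagen genes were called, Col12a1, Col6a6 (1.06 ± 0.17, adjusted p = 0.0356) and Col28a1 (-1.06 ± 0.17, adjusted p = 0.0363, limma). The part of the marker signal in these values was not tested.

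Across all 11 comparisons, 25 of the 43 collagen genes were called at least once and 18 never. Of the 60 calls of a gene in a comparison, 49 held whichever single library was left out. Fits of the compared libraries alone lost calls as well: all 5 drug calls in C57BL/6 and 2 of 3 in 129S1/SvImJ. They also lost 4 of 10 strain calls on each diet of the drug experiment. Of the depot calls, 2 of 12 in C57BL/6 and 3 of 9 in 129S1/SvImJ were lost in such fits. With the replicate number as a block, 9 of 10 strain calls in 12-week eWAT were lost. Position joined many members: 15 of the 43 lie next to another collagen gene in RefSeq GRCm38.p6, in 8 adjacent pairs. The pairs differed in how alike they were. Col4a1 and Col4a2 were farthest apart between depots in C57BL/6, at log2 differences of 0.15 and -0.19. Col4a6 and Col4a5 differed by -4.73 and -0.94 between depots in C57BL/6, and Col6a5 and Col6a4 by -3.97 and 0.04. There Col6a4 was low in both depots, at 8, 10, 1 and 9 in iWAT and 4 to 8 in eWAT. A fall could hardly show at these values. In 129S1/SvImJ, Col6a5 and Col6a4 differed by -5.01 and -0.80. Col6a4 stood there at 83, 1, 2 and 30 in iWAT and at 14 to 26 in eWAT. The 83 and 30 were in the libraries with high lymphocyte markers.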

How the data were processed

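RNA of eWAT and iWAT was sequenced with a TruSeq kit, per the labels' protocols, and 43 of 49 samples were used; 5 F1 samples and 1 GRO-seq sample were not analysed here. Per the submitters' processing notes, HOMER and the mouse build mm9 were used; the sources used here do not give the normalization or say whether counting used strand. The deposited values were treated as a score: whole numbers with a floor of 1, and, from the values, with the same highest value in all libraries of a table. The authors' deposited log2 fold changes were not used for any result. The 8 control libraries stand identically in both drug tables and were used once; the chow table was normalized alone.

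Differences were fitted with limma 3.58.1 in R 4.3.3 on log2(value + 1) over all 22869 symbols with trend and robust settings, two-sided, with Benjamini-Hochberg adjustment, after a check on simulated data. One fit each was made for chow (10 libraries), the drug experiment (16), the strains in eWAT (9) and iWAT (8) at 12 weeks, and the depots (17). Named were the main chains of types I, III, V, IV (Col4a1, Col4a2), XV, XVIII and VI (Col6a1 to Col6a3), up to 4 called members of each class per comparison by smallest p with a mean of at least 5, and up to 4 called maturation or receptor genes per comparison; other names were added after their values were seen. The members and lists were chosen with earlier results of these data known. Alternatives were pseudocount 8, a minimum value of 10, recentred libraries, a replicate block, a fit of the compared libraries, the authors' flagged transcript row and leaving out libraries. The flagged row was already the row used for 42 of the 43 collagen genes, and Col4a3 has only 1 row. That alternative therefore changed no collagen value, only those of other genes, and the other rows of the 6 symbols with more than 1 were not tested.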

Additional observations from a re-analysis of the deposited data

Results flagged for a closer look

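Single libraries stood far from the rest of their group, by Dixon's 95% criterion for the gap to the nearest library over the group's range, in 28 of the 280 groups of values checked (28 genes in 10 groups, 10%). Chance flags about 1 in 20 groups of continuous values. The rate does not apply to low whole numbers with ties or a floor. Flags of that kind include Col22a1 and Col8a2 in C57BL/6 iWAT and Col6a4 in C57BL/6 eWAT on rosiglitazone. There the other libraries of the group were tied.

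In C57BL/6 chow eWAT replicate 1, Col22a1 was high at 16 against 3 to 5 in the others. In C57BL/6 chow eWAT replicate 3, Col5a2 was low at 1292 against 1654 to 1715 in the others.

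In 129S1/SvImJ chow eWAT replicate 1, Col1a2 was high at 5551 against 3670 to 3951 in the others and Col4a5 was high at 1036 against 346 to 508 in the others. In 129S1/SvImJ chow eWAT replicate 1, Col4a6 was high at 687 against 126 to 233 in the others and Col6a5 was high at 2271 against 898 to 1263 in the others. In 129S1/SvImJ chow eWAT replicate 2, Col22a1 was high at 75 against 1 to 7 in the others and Col4a1 was low at 2380 against 7228 to 8003 in the others. In 129S1/SvImJ chow eWAT replicate 2, Col4a2 was low at 1493 against 3981 to 4940 in the others and Col5a1 was low at 685 against 1546 to 1730 in the others. In 129S1/SvImJ chow eWAT replicate 2, Col5a2 was low at 588 against 1962 to 2357 in the others and Col6a4 was high at 2028 against 24 to 43 in the others.

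In C57BL/6 control diet eWAT replicate 4, Col4a2 was low at 4531 against 5728 to 5931 in the others.

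In 129S1/SvImJ control diet eWAT replicate 1, Col1a2 was high at 4069 against 2774 to 2882 in the others. In 129S1/SvImJ control diet eWAT replicate 2, Col6a4 was low at 17 against 24 to 25 in the others. In 129S1/SvImJ control diet eWAT replicate 3, Col8a1 was high at 198 against 59 to 77 in the others.

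In C57BL/6 rosiglitazone eWAT replicate 2, Col4a5 was high at 206 against 112 to 116 in the others. In C57BL/6 rosiglitazone eWAT replicate 4, Col6a4 was low at 5 against 6 in the others.

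In 129S1/SvImJ rosiglitazone eWAT replicate 2, Col12a1 was low at 271 against 415 to 428 in the others. In 129S1/SvImJ rosiglitazone eWAT replicate 4, Col24a1 was high at 9 against 3 to 4 in the others and Col4a6 was high at 101 against 67 to 70 in the others.

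In 129S1/SvImJ 12-week eWAT replicate 2, Col5a3 was high at 3625 against 2440 to 2559 in the others. In 129S1/SvImJ 12-week eWAT replicate 3, Col14a1 was low at 595 against 933 to 974 in the others.

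In C57BL/6 iWAT replicate 1, Col22a1 was high at 8 against 1 in the others. In C57BL/6 iWAT replicate 3, Col12a1 was high at 335 against 101 to 108 in the others. In C57BL/6 iWAT replicate 4, Col8a2 was high at 5 against 1 in the others.

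In 129S1/SvImJ iWAT replicate 3, Col1a2 was high at 9417 against 6228 to 6511 in the others and Col24a1 was high at 7 against 4 in the others.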

How the results depend on the processing

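No call reversed its direction under any alternative, and 49 of 60 calls held whichever single library was left out. On chow the 1 call became 0 with pseudocount 8 and 0 with the replicate block, 2 without 129S1/SvImJ replicates 1 and 2, 3 without the 4 libraries with other tissue markers (chosen after seeing the data), and 0 to 6 when 1 library was left out. In fits of the compared libraries only, the counts were 6 for the strains on control diet, 6 on rosiglitazone, 0 for the drug in C57BL/6 and 1 in 129S1/SvImJ, against 10, 10, 5 and 3. The last count ran from 3 to 5 without 1 library. Between strains in 12-week eWAT it was 17 with values of at least 10, against 10. In iWAT it was 1 with values of at least 10, 1 with recentred libraries and 2 without the 3 libraries with lymphocyte markers (chosen after seeing the data), against 0. For depot differences that differed between strains it was 2 with values of at least 10 and 0 to 2 without 1 library (2 without 129S1/SvImJ iWAT replicate 3, and 1 each without 129S1/SvImJ eWAT replicate 3 and C57BL/6 iWAT replicates 1 and 4), against 0. Apart from having fewer samples or genes in the fit, the cause was not tested.

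Same-numbered libraries did not all deviate together: in none of 13 pairs of groups did every correlation pass 0.1. Single correlations ran from -0.184 to 0.566 between the strains in iWAT and from -0.487 to 0.479 on chow. This criterion cannot exclude pairing or a shared batch, so whether same-numbered libraries belong together was not settled. With the replicate block the count between strains in 12-week eWAT was 1, against 10, and the gene still called was Col6a6 (adjusted p = 0.0299). The read depth is unknown, so the precision of low values, such as those at the floor in C57BL/6 iWAT, could not be given.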
